A study of Mus musculus with 16 samples.

Results

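In striatum of inbred mice given risperidone or kept as controls, 10 genes of dopamine and cAMP signalling were followed: Drd1, Drd2, Gnal, Adcy5, Pde10a, Pde1b, Ppp1r1b, Arpp21, Ptpn5 and Rasgrp2. A probe set (the group of array probes that together read a transcript) was a member where one of these 10 genes was its only gene symbol in the platform's probe-to-gene table. The 10 genes, of 17097 genes named alone by at least 1 probe set, had 23 of the 45037 probe sets tested. Striatal RNA of 16 male mice aged 7 to 8 weeks was hybridised to Affymetrix mouse perfect-match arrays, with 4 biological replicates in each of 4 groups. The groups were DBA/2J mice given risperidone, DBA/2J control mice, A/J mice given risperidone and A/J control mice. The antipsychotic drug risperidone, an antagonist at D2 dopamine receptors and at serotonin receptors, was injected intraperitoneally at 1.0 mg/kg once a day for 3 days. The controls are labelled untreated, while the protocol text shared by all samples names saline, so they are called control mice. The supplier's substrains were DBA/2JRccHsd and A/JOlaHsd, the mice were housed 8 per cage, and the labels name no engineered allele. Levels are log2 RMA values, on which a difference of 1 is a doubling, and levels of different probe sets are not compared with each other.

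Dopamine reaches striatal projection neurons through D1 receptors, which raise cAMP through the G protein alpha subunit Golf and adenylyl cyclase 5, and through D2 receptors, which lower it. Phosphodiesterases break the cyclic nucleotides down again, and protein kinase A, activated by cAMP, phosphorylates proteins that are abundant in these neurons, DARPP-32, ARPP-21 and the phosphatase STEP among them. D1 and D2 receptors are carried largely by separate projection neuron populations, and antipsychotics that block D2 receptors act on the D2 population most directly.

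The arrays were checked before the members were compared. The arrays' median levels lay between 5.66 and 5.71, and 0 pairs of arrays held identical values, although DBA/2J risperidone replicates 2, 3 and 4 carry the same description in the labels. The strain markers were 48 probe sets that differed strongly between the strains' control mice. At each, an array's unlogged level was placed on a scale from the A/J control mean (0%) to the DBA/2J control mean (100%). An array's reading on this scale is the median over the probe sets. For a control array, the probe sets (46 to 49 of them) and the means were set without that array. The arrays labelled A/J risperidone read 27.8%, 36.2%, 0.444% and 39% on it for replicates 1 to 4, whereas A/J control arrays lay between -2.3% and 0.944%. DBA/2J risperidone arrays read 87.7% to 102% and DBA/2J control arrays 96.1% to 103%. Thus 3 A/J risperidone arrays stood apart from their label, and most single-gene differences that use them are also given with replicate 3 alone, the single A/J risperidone array then left, and the spread taken from the other groups. DBA/2J control replicate 4 also stood apart, with correlations of 0.97 to 0.979 with the other arrays, against 0.986 to 0.995 among the other 15. The striatal neuropeptide genes Penk (6.13 to 7.98) and Tac1 (5.91 to 7.9) were above background on every array, and so were the cortical markers Slc17a7 (9.52 to 10.2) and Tbr1 (8.06 to 8.79). In bulk tissue, fewer cells of a type and less RNA per cell cannot be told apart.

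Background was set at a log2 level of 5.36, the 95th percentile of mean levels over 84 probe sets of odorant, vomeronasal and trace amine receptors. In all, 20 of the 23 member probe sets had a mean above it. The 3 near background were the single probe set of Drd2 (mean 4.05), 1 of 4 Gnal probe sets (1446359_PM_at, mean 4.81) and 1 of 2 Rasgrp2 probe sets (1442264_PM_at, mean 4.19). Drd2 was therefore the 1 gene of the 10 with no probe set above background. For each of the others, the probe set with the highest mean is shown first.

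Of the 10 genes, 3 passed the test between strains in control mice, and none passed it for risperidone. DBA/2J control mice had lower levels of Pde10a, Gnal and Ppp1r1b than A/J control mice, by 1.35-fold to 1.53-fold in 4 probe sets, while the 4 Arpp21 probe sets lay higher in DBA/2J without passing. The 4 called probe sets are 17.4% of the 23 members, where 3.87% of all probe sets were called in this comparison, and 1.86% were called lower. The 3 genes stand beside 5.31% of all genes called and 3.07% called lower. Without DBA/2J control replicate 4 the genes called were Pde10a and Arpp21, and without the 3 A/J risperidone arrays Pde10a alone. Calls used limma over all probe sets with Benjamini-Hochberg adjustment and an adjusted p under 0.05. Groups did not overlap in 7 of the 23 member probe sets (30.4%), all of Drd2, Gnal, Pde10a and Ppp1r1b, against 9.33% of all. The median difference over the 10 shown probe sets was -0.17, with 3 higher and 7 lower in DBA/2J, against -0.002 over all genes.

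**Figure D1:**
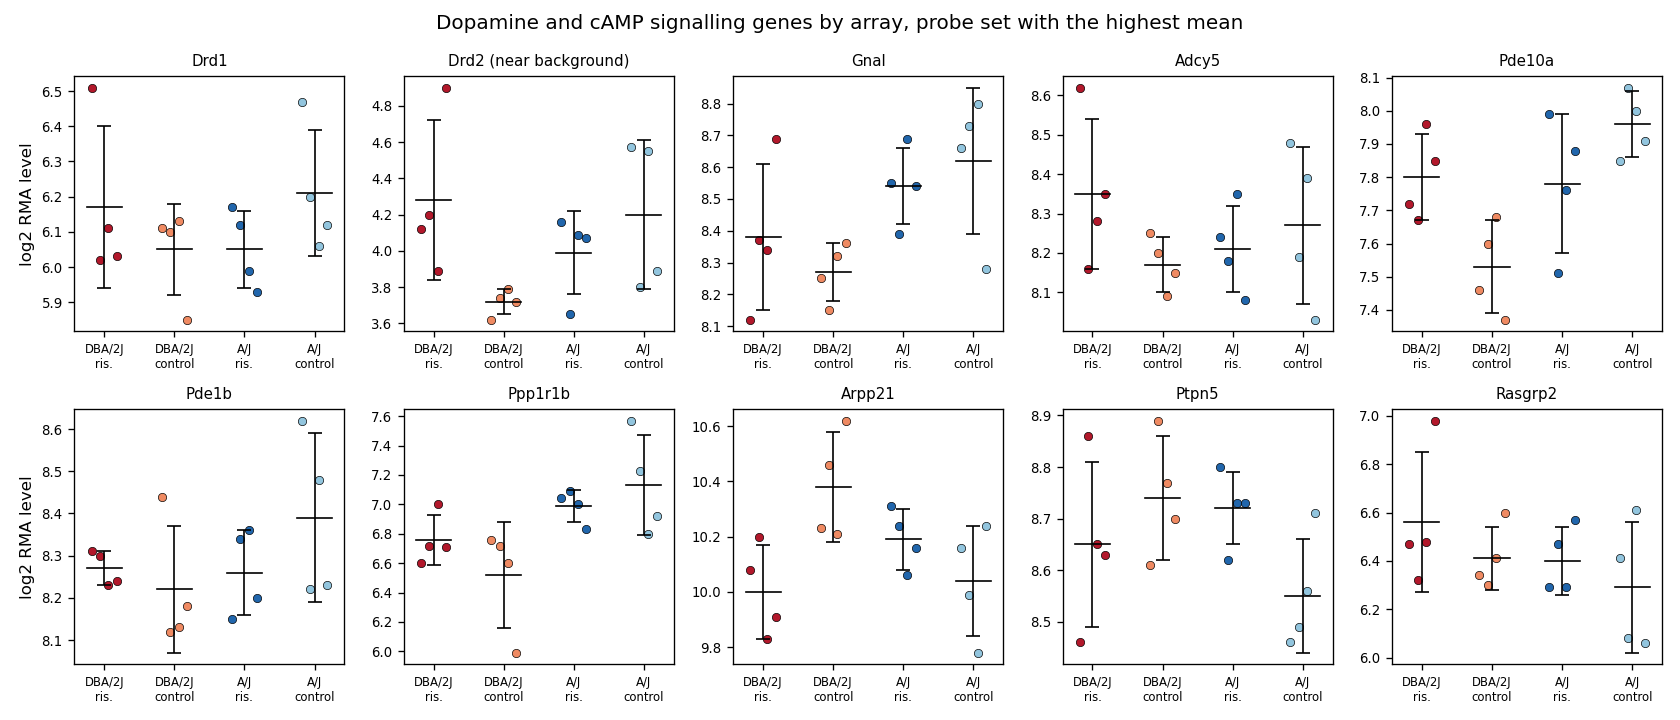
The log2 RMA level (vertical axis) of the probe set shown for each of the 10 genes, by group (horizontal axis), with 1 point per array in replicate order, a horizontal line at the group mean and bars of 1 SD (n = 4). DBA/2J control arrays have the lowest mean for 7 genes and the highest for Arpp21 and Ptpn5. Groups that follow each other in order of their means overlap in each panel, while some groups further apart in that order do not.

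The D1 receptor gene Drd1 had similar levels in all 4 groups. Drd1 (1455629_PM_at) read 6.51, 6.02, 6.11 and 6.03 in DBA/2J risperidone arrays, 6.11, 6.10, 6.13 and 5.85 in DBA/2J control arrays, 6.17, 6.12, 5.99 and 5.93 in A/J risperidone arrays, and 6.47, 6.20, 6.06 and 6.12 in A/J control arrays. All 4 groups overlapped, with the highest value in a DBA/2J risperidone array and the lowest in a DBA/2J control array. Risperidone minus control was 0.12 ± 0.12 (SE) in DBA/2J, with a 95% interval of -0.12 to 0.36 and a limma adjusted p of 0.725. In A/J it was -0.16, with an interval of -0.40 to 0.08 and an adjusted p of 0.967, and -0.22 ± 0.19 with replicate 3 as the single A/J risperidone array. DBA/2J minus A/J in control mice was -0.17 ± 0.12, with an interval of -0.41 to 0.08 and an adjusted p of 0.482. Leaving out DBA/2J control replicate 4 gave a strain difference of -0.10, and risperidone minus control in DBA/2J was then 0.05.

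The D2 receptor gene Drd2, whose product is a main target of risperidone, was read near background on every array, so its differences are those of a signal close to the array's floor. Drd2 (1418950_PM_at) read 4.12, 4.20, 3.89 and 4.90 in DBA/2J risperidone arrays, 3.62, 3.74, 3.79 and 3.72 in DBA/2J control arrays, 4.16, 3.65, 4.09 and 4.07 in A/J risperidone arrays, and 4.57, 3.80, 4.55 and 3.89 in A/J control arrays. Every DBA/2J risperidone array was above every DBA/2J control array, and every DBA/2J control array was below every A/J control array. Risperidone minus control was 0.56 ± 0.20 in DBA/2J (interval 0.15 to 0.97, limma adjusted p = 0.328) and -0.21 in A/J (adjusted p = 0.987), or -0.11 ± 0.32 with the single A/J risperidone array. The strain difference in control mice was -0.49 ± 0.20, with an adjusted p of 0.196.

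Markers of dopamine neurons, which are cells of the midbrain and carry D2 receptors themselves, were high on 2 arrays where Drd2 was also high. The dopamine transporter gene Slc6a3 read 7.55 in DBA/2J risperidone replicate 4 and 7.25 in A/J control replicate 3, against 4.75 to 5.61 on the other arrays. Drd2 read 4.90 and 4.55 on those arrays, while A/J control replicate 1 had a Drd2 level of 4.57 with Slc6a3 at 4.98. Over the 6 measured genes of the list, 5 of them near background, the mean level was 4.43 to 6.11 in DBA/2J risperidone arrays, 4.36 to 4.46 in DBA/2J control arrays, 4.32 to 4.92 in A/J risperidone arrays and 4.40 to 5.92 in A/J control arrays. Without the 2 arrays, an alternative added after seeing the data, risperidone minus control for Drd2 in DBA/2J was 0.35 ± 0.16 (adjusted p = 0.511), and the strain difference in control mice was -0.37 ± 0.16 (adjusted p = 0.296). The part of these cells' RNA in the Drd2 values was not tested beyond this.

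**Figure D2:**
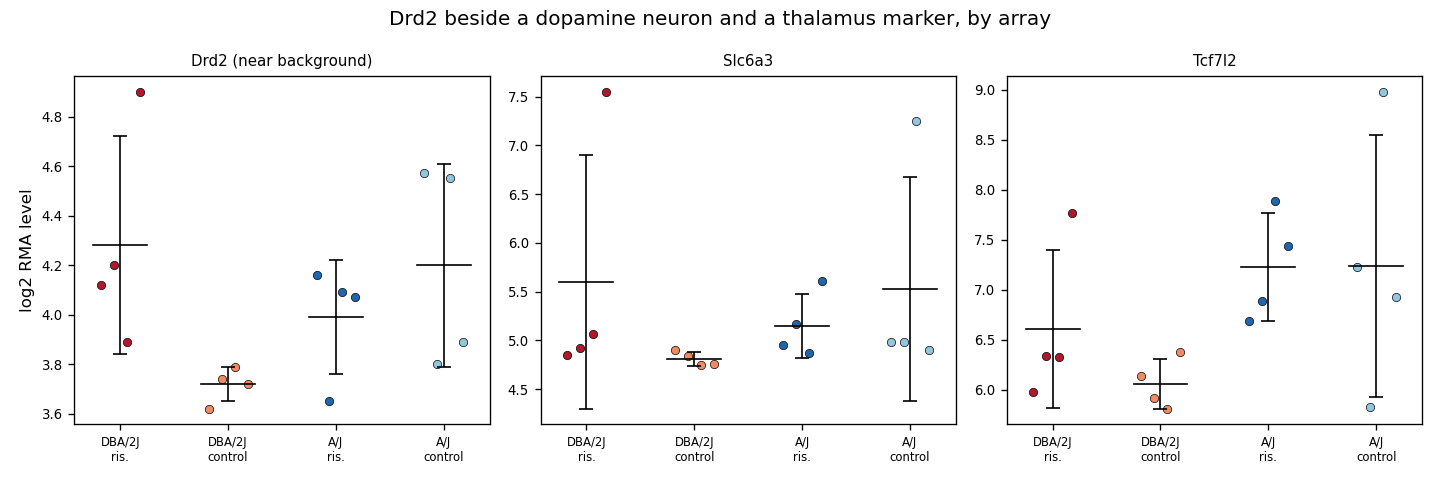
Drd2, the dopamine neuron marker Slc6a3 and the thalamus marker Tcf7l2 by array, as log2 RMA levels (vertical axes) in the 4 groups, with 1 point per array in replicate order, group means as horizontal lines and bars of 1 SD (n = 4). The 2 arrays with Slc6a3 at 7.55 and 7.25 have Drd2 at 4.90 and 4.55 and Tcf7l2 at 7.77 and 8.98.

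Gnal encodes Golf, the G protein alpha subunit that couples D1 and adenosine receptors to adenylyl cyclase in striatum, and 1 of its 4 probe sets was called lower in DBA/2J. That probe set (1439957_PM_at) read 7.99, 7.64, 7.75 and 7.93 in DBA/2J risperidone arrays, 7.71, 7.68, 7.67 and 7.15 in DBA/2J control arrays, 7.68, 7.73, 8.06 and 7.98 in A/J risperidone arrays, and 8.26, 7.86, 8.23 and 7.98 in A/J control arrays. Every DBA/2J control array was below every A/J control array, and DBA/2J control replicate 4 was the lowest. Levels averaged 7.55 ± 0.27 in DBA/2J control mice and 8.08 ± 0.19 in A/J control mice (SD, n = 4 each), a difference of -0.53 ± 0.13 (SE) or 1.44-fold (limma adjusted p = 0.0296). The difference was -0.40 without DBA/2J control replicate 4 (adjusted p = 0.0766), -0.47 without A/J control replicate 1 (0.097) and -0.48 without A/J control replicate 3 (0.0992), and without the 2 arrays with high dopamine neuron markers it was -0.48 (adjusted p = 0.11). Without the 3 A/J risperidone arrays that stood apart, which enter through the shared estimate of spread, it was -0.53 (adjusted p = 0.0514).

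The other 3 Gnal probe sets were also lower in DBA/2J control mice and did not pass. The shown one (1440880_PM_at) averaged 8.27 in DBA/2J control mice and 8.62 in A/J control mice, a difference of -0.35 ± 0.12 (limma adjusted p = 0.127). The remaining pair differed by -0.27 (1442021_PM_at, adjusted p = 0.25) and, near background, by -0.11 (1446359_PM_at). After risperidone, 1439957_PM_at averaged 7.83 in DBA/2J mice and 7.86 in A/J mice, a difference of -0.03 with an adjusted p of 0.968. Without the 3 A/J risperidone arrays that stood apart, this difference was -0.23 ± 0.21 against the single array left.

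Adcy5 encodes the main adenylyl cyclase of striatal neurons, the enzyme that makes cAMP. Its shown probe set (1455296_PM_at) read 8.62, 8.16, 8.28 and 8.35 in DBA/2J risperidone arrays, 8.25, 8.20, 8.09 and 8.15 in DBA/2J control arrays, 8.24, 8.18, 8.35 and 8.08 in A/J risperidone arrays, and 8.48, 8.19, 8.39 and 8.03 in A/J control arrays. The 4 groups overlapped. The strain difference in control mice was -0.10 (limma adjusted p = 0.672). The second probe set (1439829_PM_at) read higher in DBA/2J control mice by 0.21 (adjusted p = 0.414), the opposite direction, and its DBA/2J risperidone arrays (6.19 to 6.25) all lay below its DBA/2J control arrays (6.30 to 6.99), a difference of -0.27 that did not pass. DBA/2J control replicate 4 was its highest array, and without it the strain difference was 0.05 and the risperidone difference -0.11.

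Pde10a, the dual cAMP and cGMP phosphodiesterase concentrated in striatal projection neurons, had the strain difference with the smallest adjusted p among the members. In control mice, 4 of its 5 probe sets were lower in DBA/2J, 2 of them past the test, and the fifth (1432490_PM_a_at, just above background) differed by 0.00. Probe set 1419390_PM_at read 6.78, 6.62, 6.77 and 6.37 in DBA/2J risperidone arrays, 6.23, 6.46, 6.15 and 6.28 in DBA/2J control arrays, 6.59, 6.39, 6.49 and 6.50 in A/J risperidone arrays, and 6.97, 6.84, 6.80 and 6.88 in A/J control arrays. All 4 DBA/2J control arrays lay below all 4 A/J control arrays, and both risperidone groups lay between the control means.

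Levels of 1419390_PM_at averaged 6.28 ± 0.13 in DBA/2J control mice and 6.87 ± 0.07 in A/J control mice (SD, n = 4 each). The difference was -0.59 ± 0.10 (SE), or 1.51-fold, with an interval of -0.79 to -0.39 and a limma adjusted p of 0.000945. Without DBA/2J control replicate 4 it was -0.59 (adjusted p = 0.00218), and without the 2 arrays with high dopamine neuron markers it was -0.62 (adjusted p = 0.000872). The shown probe set (1458499_PM_at) averaged 7.53 ± 0.14 in DBA/2J control mice and 7.96 ± 0.10 in A/J control mice, a difference of -0.43 ± 0.10 or 1.35-fold (adjusted p = 0.0247). It no longer passed when DBA/2J control replicate 4 (-0.38, adjusted p = 0.0627), DBA/2J control replicate 1 (-0.41, 0.0621), A/J control replicate 2 (-0.39, 0.0728) or A/J control replicate 3 (-0.42, 0.0712) was left out, nor without the 2 arrays with high dopamine neuron markers (-0.42, adjusted p = 0.0814). The remaining 2 probe sets differed by -0.65 ± 0.20 (1439618_PM_at, adjusted p = 0.0762) and -0.29 (1419389_PM_at, adjusted p = 0.22). Without DBA/2J control replicate 4, the lowest array of 1439618_PM_at and the highest of 1419389_PM_at in its group, they differed by -0.36 ± 0.11 (adjusted p = 0.0965) and -0.43 ± 0.11 (adjusted p = 0.031). Base differences between the strains under a probe and differences in RNA level cannot be told apart from these values.

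Under risperidone 4 of 5 Pde10a probe sets had differences of opposite sign in the strains, higher in DBA/2J and lower in A/J, with none past the test, and 1432490_PM_a_at was at -0.05 in DBA/2J and -0.08 in A/J. For 1419390_PM_at, risperidone minus control was 0.35 ± 0.10 in DBA/2J (limma adjusted p = 0.213) and -0.38 ± 0.10 in A/J (adjusted p = 0.366), where all 4 risperidone arrays lay below all 4 control arrays. The difference between these effects was 0.73 ± 0.13, with an interval of 0.45 to 1.02 and an adjusted p of 0.187. Without the 3 A/J risperidone arrays that stood apart, the A/J difference was -0.38 ± 0.16 (adjusted p = 0.999) and the difference between effects 0.74 ± 0.19 (adjusted p = 0.769), with 1 A/J risperidone array left and its spread taken from the other groups. For 1439618_PM_at, risperidone minus control was 0.55 ± 0.20 in DBA/2J and -0.44 ± 0.20 in A/J, and the groups did not overlap in either strain. The DBA/2J value was 0.25 ± 0.11 without DBA/2J control replicate 4, and the A/J value was -0.22 ± 0.33 with the single A/J risperidone array. DBA/2J minus A/J in risperidone mice was 0.14 ± 0.10 for 1419390_PM_at (interval -0.06 to 0.34, adjusted p = 0.707) and 0.15 ± 0.16 with the single A/J risperidone array. These comparisons share their control and risperidone arrays, so their signs are not independent of one another.

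**Figure D3:**
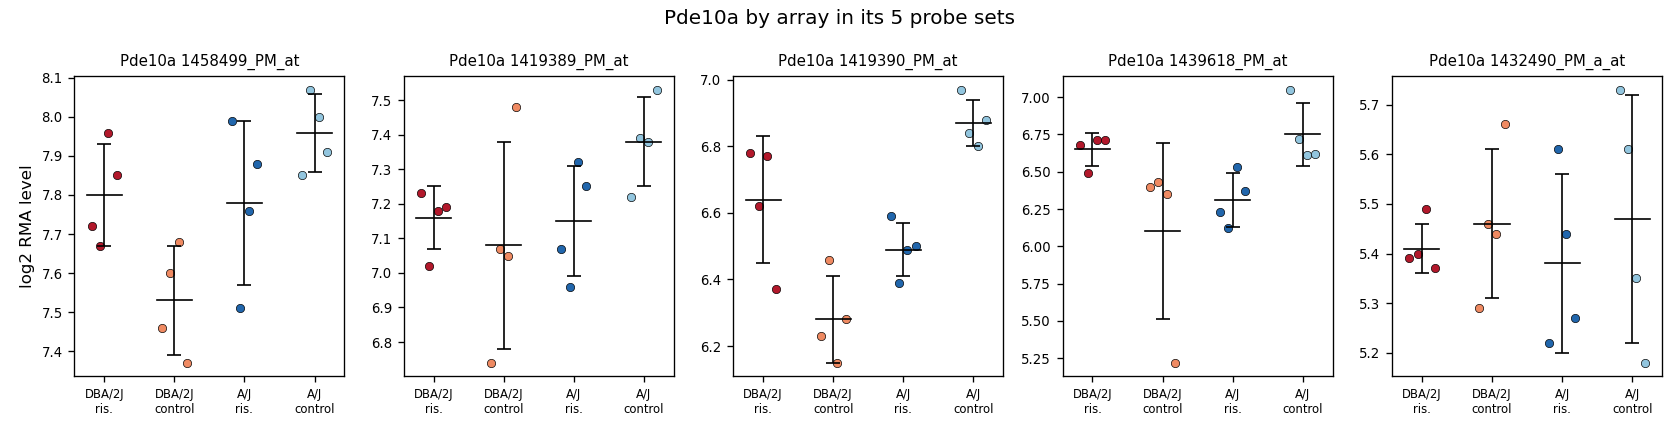
The 5 Pde10a probe sets by array (vertical axis, log2 RMA level; horizontal axis, group), with group means as horizontal lines and bars of 1 SD (n = 4). The DBA/2J control mean is below the A/J control mean by 0.29 or more in 4 panels, and A/J risperidone means lie below A/J control means in all 5.

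Pde10a has 2 annotated start windows in the RefSeq promoter table (GRCm38.p6), and the 250 bases before each start are printed because its probe sets gave the strain difference with the smallest adjusted p, although the array does not tell transcripts from the 2 starts apart. Both are on the plus strand, and capitals mark CG dinucleotides. The first is chr17:8801495-8801744, with 72.8% G or C and 21 CG dinucleotides, more than in 83.7% of the table's 32851 windows. The second is chr17:8849735-8849984, with 56.0% G or C and 4 CG dinucleotides, more than in 37.8% of windows. The median window held 6 CG dinucleotides and 52.4% G or C.
Pde10a window 1: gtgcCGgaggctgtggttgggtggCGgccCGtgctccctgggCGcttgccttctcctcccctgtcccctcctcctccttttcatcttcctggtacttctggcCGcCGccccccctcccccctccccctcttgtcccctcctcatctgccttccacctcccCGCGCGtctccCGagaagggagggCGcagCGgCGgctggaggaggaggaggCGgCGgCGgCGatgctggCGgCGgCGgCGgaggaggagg
Pde10a window 2: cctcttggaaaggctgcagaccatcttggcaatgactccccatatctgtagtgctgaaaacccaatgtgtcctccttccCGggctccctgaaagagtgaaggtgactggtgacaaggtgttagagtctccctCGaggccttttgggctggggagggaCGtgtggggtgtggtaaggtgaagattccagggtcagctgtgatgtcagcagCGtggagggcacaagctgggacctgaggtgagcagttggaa

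Pde1b encodes a phosphodiesterase switched on by calcium and calmodulin, and its single probe set (1449420_PM_at) read 8.31, 8.30, 8.23 and 8.24 in DBA/2J risperidone arrays, 8.44, 8.12, 8.13 and 8.18 in DBA/2J control arrays, 8.15, 8.34, 8.36 and 8.20 in A/J risperidone arrays, and 8.62, 8.22, 8.48 and 8.23 in A/J control arrays. The groups overlapped. The strain difference in control mice was -0.17 (limma adjusted p = 0.385).

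Ppp1r1b encodes DARPP-32, which inhibits protein phosphatase 1 once protein kinase A has phosphorylated it, and it was lower in DBA/2J control mice. Its probe set (1451331_PM_at) read 6.60, 6.72, 7.00 and 6.71 in DBA/2J risperidone arrays, 6.76, 6.72, 6.60 and 5.99 in DBA/2J control arrays, 7.04, 7.09, 7.00 and 6.83 in A/J risperidone arrays, and 7.57, 7.23, 6.80 and 6.92 in A/J control arrays. Every DBA/2J control array lay below every A/J control array, with DBA/2J control replicate 4 the lowest and A/J control replicate 1 the highest. The difference was -0.61 ± 0.17, or 1.53-fold (limma adjusted p = 0.0442). Leaving out 11 of the 16 arrays, one at a time, ended this call (adjusted p between 0.0505 and 0.146), namely DBA/2J risperidone replicates 1, 2 and 4, DBA/2J control replicates 3 and 4, all 4 A/J risperidone arrays and A/J control replicates 1 and 2. Without DBA/2J control replicate 4 the difference was -0.44 (adjusted p = 0.117), and without the 3 A/J risperidone arrays that stood apart it was -0.61 (adjusted p = 0.0928). In risperidone mice the strain difference was -0.23 (adjusted p = 0.731), or -0.24 ± 0.28 with the single A/J array. Risperidone minus control was 0.24 in DBA/2J (adjusted p = 0.609), or 0.06 without DBA/2J control replicate 4, and -0.14 in A/J (adjusted p = 0.992), or -0.13 ± 0.28 with the single A/J array.

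Arpp21 encodes ARPP-21, a cAMP-regulated phosphoprotein that, once phosphorylated by protein kinase A, binds calmodulin. It lay in the opposite direction to Pde10a and Gnal, with all 4 probe sets higher in DBA/2J control mice than in A/J control mice and none past the test. The shown probe set (1451280_PM_at) read 10.08, 10.20, 9.83 and 9.91 in DBA/2J risperidone arrays, 10.23, 10.46, 10.21 and 10.62 in DBA/2J control arrays, 10.31, 10.24, 10.06 and 10.16 in A/J risperidone arrays, and 10.16, 9.99, 9.78 and 10.24 in A/J control arrays. All DBA/2J risperidone arrays lay below all DBA/2J control arrays. Risperidone minus control was -0.38 ± 0.12 in DBA/2J, with an interval of -0.62 to -0.13 and a limma adjusted p of 0.281, and 0.15 ± 0.12 in A/J, or 0.02 ± 0.20 with the single A/J risperidone array. All 4 probe sets were lower under risperidone in DBA/2J, by differences from -0.24 to -0.38. The strain differences in control mice were 0.34 ± 0.12 (1451280_PM_at, adjusted p = 0.123), 0.37 (1440429_PM_at, adjusted p = 0.101), 0.28 and 0.08. Without DBA/2J control replicate 4, the highest array of 1451280_PM_at, they were 0.26, 0.48, 0.28 and 0.14 in the same order. In that fit 1440429_PM_at passed (limma adjusted p = 0.0232). Without the 2 arrays with high dopamine neuron markers the strain differences were 0.25, 0.24, 0.19 and 0.01, and none passed.

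The cAMP response element that CREB binds, TGACGTCA, was searched for on both strands in 300-base promoter windows (250 bases before to 50 after the start), together with its shorter form TGACG, which lies within it. Of the 10 genes, 8 matched the RefSeq table, with 22 windows, some of which overlap, and 9 of the 22 are of Arpp21. Gnal and Ppp1r1b had no window, so nothing is said of them here. The full element was in 0 of the 22, against 1.79% of all windows, and TGACG was in 3, all of Arpp21, against 20.8% of all windows. These 3 windows hold 2 distinct positions, since 2 of them overlap at one. The bases before 1 of these Arpp21 starts, chr9:112217262-112217511 on the minus strand of GRCm38.p6, are printed with TGACG in capitals, to show the match in its sequence. A match of letters is a description of the sequence and says nothing about binding.
Arpp21 window 5: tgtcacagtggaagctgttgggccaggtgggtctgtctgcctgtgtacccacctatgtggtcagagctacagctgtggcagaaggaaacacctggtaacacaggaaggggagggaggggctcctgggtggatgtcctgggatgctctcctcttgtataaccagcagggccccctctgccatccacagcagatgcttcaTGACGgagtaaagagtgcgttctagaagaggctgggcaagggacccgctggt

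Ptpn5 encodes STEP, a tyrosine phosphatase of striatal neurons that protein kinase A inhibits. Its shown probe set (1425130_PM_a_at) read 8.46, 8.86, 8.65 and 8.63 in DBA/2J risperidone arrays, 8.61, 8.89, 8.77 and 8.70 in DBA/2J control arrays, 8.80, 8.62, 8.73 and 8.73 in A/J risperidone arrays, and 8.46, 8.49, 8.56 and 8.71 in A/J control arrays. The groups overlapped. The strain difference in control mice was 0.19 (limma adjusted p = 0.301), and that of the second probe set (1425131_PM_at) was 0.03.

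Rasgrp2 encodes CalDAG-GEFI, an activator of the small GTPase Rap that is enriched in striatal projection neurons. Its shown probe set (1417804_PM_at) read 6.47, 6.32, 6.48 and 6.98 in DBA/2J risperidone arrays, 6.34, 6.30, 6.41 and 6.60 in DBA/2J control arrays, 6.29, 6.47, 6.29 and 6.57 in A/J risperidone arrays, and 6.41, 6.08, 6.61 and 6.06 in A/J control arrays. The groups overlapped, with the highest value in DBA/2J risperidone replicate 4. Risperidone minus control was 0.15 in DBA/2J and 0.11 in A/J, neither past the test, and 0.00 ± 0.23 in A/J with the single A/J risperidone array. In the second Rasgrp2 probe set (1442264_PM_at), near background, it was -0.04 in DBA/2J and 0.23 in A/J, neither past the test. The strain difference in control mice was 0.12 in both probe sets, neither past the test.

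In DBA/2J mice, 0 of the 23 member probe sets passed the test for risperidone, where 0.04% of all probe sets did (18 of 45037). At an unadjusted p under 0.05 there were 8 of 23 members (34.8%), against 10.7% of all probe sets. These were all of Pde10a, Arpp21, Drd2 and Adcy5, and probe sets of the same gene are not independent readings. The base is also unlike the members in every such comparison, since 25646 of 45037 probe sets lay above the background bound, against 20 of 23 members. The groups did not overlap in 4 of 23 (17.4%), against 4.4% of all: Drd2, 1 Adcy5, 1 Pde10a and 1 Arpp21 probe set. The median difference over the 10 shown probe sets was 0.14, with 8 higher and 2 lower, against 0.01 over all genes. The smallest adjusted p of a member was 0.213. Many marker lists of cells also leaned one way in this comparison, with 0 genes called in any list. Higher were 6 of 6 dopamine neuron genes (median 0.49), 10 of 11 choroid plexus and ependyma genes (0.28) and 9 of 11 oligodendrocyte genes (0.17). So were 8 of 11 thalamus genes (0.14), 8 of 10 astrocyte genes (0.16), 6 of 8 striatal interneuron genes (0.13) and 3 of 4 blood genes (0.18). Lower were 9 of 12 cortex genes (-0.16). Striatal projection neuron genes (5 higher, 7 lower, median -0.04) and microglia genes (5 and 4, 0.04) were mixed. The part of the listed cells in the members' differences was not tested beyond the alternatives with arrays left out or regional scores.

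In A/J mice, 0 of 23 passed and 0% of all probe sets did. The 3 A/J risperidone arrays that stood apart at the strain markers enter every comparison of this paragraph. Their part in its unadjusted counts, medians and marker lists was not tested. At an unadjusted p under 0.05 there were 4 of 23 (17.4%), all of Pde10a, Arpp21 and Rasgrp2, against 5.51% of all. The Rasgrp2 probe set among them is the one near background (1442264_PM_at). Groups did not overlap in 2, both of Pde10a, against 4.42% of all. The median difference was -0.10 against -0.01 over all genes, with 3 shown probe sets higher and 7 lower. Here 11 of 11 oligodendrocyte genes (median -0.16) and 6 of 6 dopamine neuron genes (-0.24) were lower. So were 7 of 9 microglia genes (-0.08) and 8 of 11 thalamus genes (-0.09). Higher were 9 of 11 choroid plexus and ependyma genes (0.06), 3 of 4 blood genes (0.56) and 6 of 10 astrocyte genes (0.05). Cortex (7 higher, 5 lower), striatal projection neuron (6 and 6) and striatal interneuron genes (4 and 4) were mixed. In these lists 0 genes were called, and their part was not tested. For the mean of both strains, 0 members passed (0.0266% of all probe sets) and 1 had an unadjusted p under 0.05 (6.9% of all), an Arpp21 probe set at -0.18. For the difference between the strains' effects, 0 passed (0% of all) and 7 of 23 (30.4%) had an unadjusted p under 0.05, against 9.19% of all. These 7 were all of Drd2, Gnal, Pde10a and Arpp21.

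After risperidone the strains differed in 0 of 23 member probe sets, where 0.782% of all were called, and 0 had an unadjusted p under 0.05, against 9.43% of all. The groups did not overlap in 2 (8.7%), against 7.68% of all, an Adcy5 probe set at -0.11 and an Arpp21 probe set at -0.18. For the 4 probe sets called in control mice, the strain difference in risperidone mice is set beside that in control mice. The values are 0.14 and -0.59 for Pde10a 1419390_PM_at, and 0.01 and -0.43 for Pde10a 1458499_PM_at. For Gnal 1439957_PM_at they are -0.03 and -0.53, and for Ppp1r1b -0.23 and -0.61. The difference between these differences did not pass for any of them, and the A/J risperidone arrays that stood apart enter the risperidone side.

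**Figure D4:**
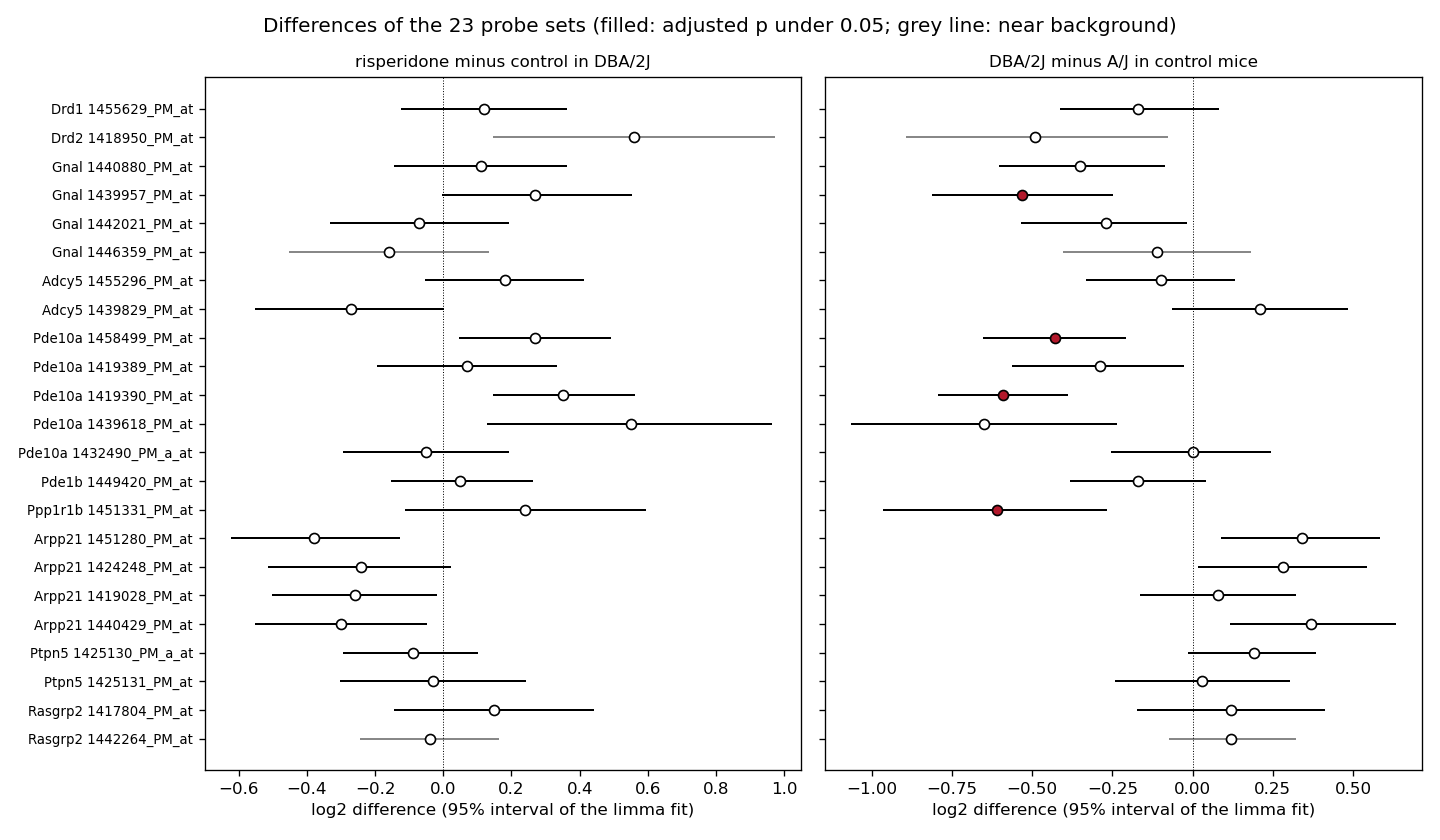
Log2 differences of the 23 member probe sets (rows) for risperidone minus control in DBA/2J (left) and for DBA/2J minus A/J in control mice (right), with 95% limma intervals on horizontal axes of different range. Filled red points passed an adjusted p of 0.05, which 4 did on the right and none on the left, and grey lines mark probe sets near background.

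Markers of neighbouring regions and other cells also differed in the comparison of control mice. All 11 measured thalamus genes were lower in DBA/2J control mice (median -0.52, 3 called lower), and so were all 11 oligodendrocyte genes (median -0.34, 4 called lower), whereas 8 of 12 cortex genes were higher and 4 lower (median 0.14, 1 called higher). Of 9 microglia genes, 8 were lower and 1 higher (median -0.28, 2 called lower). Of 11 choroid plexus and ependyma genes, 8 of them near background, 9 were lower (median -0.23, 0 called), and of 6 dopamine neuron genes 5 were lower (median -0.35, 0 called). The 12 striatal projection neuron markers were balanced, with 7 higher and 5 lower (median 0.02) and none called. The mean level of the thalamus list was 6.10 to 6.22 in DBA/2J control arrays and 6.15 to 7.39 in A/J control arrays, that of the oligodendrocyte list was 7.47 to 7.86 in DBA/2J control arrays and 7.95 to 8.62 in A/J control arrays, and that of the members was 7.35 to 7.43 in DBA/2J control arrays and 7.44 to 7.72 in A/J control arrays. A further fit had 3 regional marker scores as covariates, those of striatal projection neurons, choroid plexus and ependyma, and thalamus. The oligodendrocyte, cortex, microglia and dopamine neuron lists were not among them. With these scores 0 members were called (35 probe sets in all), while the standard errors were larger. Under this fit the differences were -0.47 ± 0.20 for Pde10a 1419390_PM_at, -0.58 ± 0.23 for Pde10a 1458499_PM_at, -0.41 ± 0.26 for Gnal 1439957_PM_at and -1.11 ± 0.31 for Ppp1r1b. The part of these cells and regions in the differences was not tested beyond this.

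Of 79 other genes of the pathway (further receptors, G proteins, cyclases, phosphodiesterases, kinase subunits and targets), 66 were measured, and in control mice 27 lay higher and 39 lower in DBA/2J (median -0.03). In this comparison 4 of the 66 were called (6.06%), near the 5.31% of all genes. Pde7a, a cAMP phosphodiesterase, was called higher, by 0.32 ± 0.08 in 1438041_PM_at (limma adjusted p = 0.021) and at least 1.70-fold in 1450933_PM_at (adjusted p = 9.41e-05), whose mean was 6.13 in DBA/2J control mice and 4.76 in A/J control mice. All 4 A/J control arrays of the last probe set lay below the background bound, which stands in for them in that fold. Prkar2b, a regulatory subunit of protein kinase A, was called lower, at -0.51 ± 0.12 (adjusted p = 0.0169), and so was Cdk5, a kinase that phosphorylates DARPP-32, at -0.42 ± 0.11 (adjusted p = 0.0472). Probe sets of Adcy9, another adenylyl cyclase, were called in both directions, at 1.22, 0.62 and -0.45, so no direction is given for the gene. In risperidone mice 2 of the 66 were called (3.03%, against 1.02% of all genes), both higher in DBA/2J. They were Adcy9 in 1419811_PM_at (0.83, adjusted p = 0.000892) and Pde7a in 1450933_PM_at (0.79, adjusted p = 0.0411), for which 2 of 4 A/J risperidone arrays lay below the background bound. The A/J risperidone arrays that stood apart enter both.

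For risperidone, 1 of these 66 genes was called in the mean of both strains (1.52%, against 0.0526% of all genes). Rgs4, which speeds the switching off of G protein alpha subunits, was lower under risperidone in 1448285_PM_at, with a difference of -0.41 ± 0.07 (limma adjusted p = 0.0252). Within strains none of the 66 was called. This probe set differed by -0.46 in DBA/2J (adjusted p = 0.099) and -0.36 in A/J (adjusted p = 0.427), and the shown Rgs4 probe set by -0.39 in DBA/2J (adjusted p = 0.244) and -0.23 in A/J (adjusted p = 0.919). Among shown probe sets, the smallest p values in DBA/2J belonged to the serotonin receptor gene Htr4 (0.70, adjusted p = 0.215, near background) and Rgs4, and in A/J to Adcy9 (0.39, adjusted p = 0.469) and Rgs4. For the difference between the strains' effects they belonged to Htr4 (0.89, adjusted p = 0.378) and the opioid receptor gene Oprm1 (0.65, adjusted p = 0.427), and none was called. The A/J risperidone arrays that stood apart at the strain markers enter the A/J, mean and between-strain values of this paragraph. The Adcy9 probe set named here, 1449620_PM_s_at, also differed between the control groups, by 0.62 with DBA/2J the higher. The part of those arrays in its A/J difference of 0.39 was not tested.

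The members were also compared with each other across the 16 arrays, as deviations from group means. Of 45 gene pairs, 22 correlated positively and 23 negatively, and 0 passed an adjusted p of 0.05 in permutation tests. Adcy5 and Pde1b had a Pearson r of 0.62 and a Spearman rho of 0.64 (permutation p = 0.017, adjusted p = 0.323), and r was 0.62 without the 2 farthest arrays. Arpp21 correlated negatively with 7 of the other 9 genes. The non-member genes whose deviations followed the members' mean most closely over the 16 arrays were BC003965 (r = 0.91), Poglut2 (0.90), Chmp7 (0.90), Tmem250-ps (0.88) and Gpr153 (0.88), which share arrays and array-wide quality with the members.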

How the data were processed

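Per the labels, striatal RNA of 16 mice was hybridised to 16 Affymetrix mouse perfect-match arrays. The deposited values are log2 levels per probe set with 2 decimals, normalised by the authors with RMA, per the submitters' processing notes (version and other steps not given in the sources used here). They were used unchanged. Of 45141 rows, 104 array controls were left out; 28898 of the other 45037 probe sets named 1 gene, 551 several and 15588 none. Group means over all 16 arrays were fitted with limma 3.58.1 in R 4.3.3 (lmFit, eBayes, two-sided, Benjamini-Hochberg over 45037 probe sets), giving 6 comparisons. Errors of differences are limma SEs. Pair correlations used 100000 permutations. The limma fit was tested on simulated data for DBA/2J minus A/J in control mice only, and the other procedures were not. Plots were drawn with matplotlib 3.10.9.

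All 10 members were named by all their probe sets, the shown one having the highest mean. Other pathway genes were named where called, or otherwise the 2 with the smallest p, and so were the 5 genes most like the members' mean. The members and gene lists were chosen with earlier results of these data known. Strain markers differed by at least 1.5 between control groups, at a level of at least 7 and an adjusted p under 0.01; 0 were member probe sets. The labels name no extraction or scan batch. Replicates are biological by their titles. Alternatives covered normalization, filters, probe set choice, array weights, pairing, regional scores and leaving out arrays. The number of arrays limits the precision.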

Additional observations from a re-analysis of the deposited data

Results flagged for a closer look

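Over the 92 sets of 4 arrays formed by 23 probe sets and 4 groups, a single array lay far from the other 3 in 5, where chance alone gives about 5%. In DBA/2J control replicate 4, Drd1 read 5.85 against 6.10 to 6.13 in the rest of its group. Gnal 1439957_PM_at read 7.15 there, against 7.67 to 7.71. Pde10a 1439618_PM_at read 5.22 there, against 6.35 to 6.43. In DBA/2J risperidone replicate 2, Pde10a 1439618_PM_at read 6.49, against 6.68 to 6.71. In A/J risperidone replicate 4, Ptpn5 1425131_PM_at read 5.11, against 5.70 to 5.76.

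For Pde10a 1439618_PM_at, every DBA/2J risperidone array lay above every DBA/2J control array, while every A/J risperidone array lay below every A/J control array. The effect in DBA/2J minus that in A/J was 0.99 ± 0.28, and the limma interaction test gave an adjusted p of 0.365. Without DBA/2J control replicate 4, risperidone minus control in DBA/2J was 0.25 ± 0.11 for this probe set.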

How the results depend on the processing

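The count of 3 member genes called in control mice was 3 in 9 of 29 alternatives, 2 in 15, 1 in 4 and 0 in 1. It was 1 using only the arrays compared, 1 without the 3 A/J risperidone arrays that stood apart, 1 without 5 arrays in doubt (these, DBA/2J risperidone replicate 1 and DBA/2J control replicate 4) and 0 with 3 regional scores. Leaving out single arrays gave 1 to 3, with 1 without A/J control replicate 1. The other 5 comparisons called 0 members in all 147 alternatives. Pde10a 1419390_PM_at was called in 26 of 27 alternatives (lost with regional scores, -0.47, adjusted p = 0.537), Pde10a 1458499_PM_at in 21 of 29, Gnal 1439957_PM_at in 18 of 27 and Ppp1r1b in 13 of 29 (-1.11 to -0.44). Without DBA/2J control replicate 4, Pde10a 1419389_PM_at (-0.43, adjusted p = 0.031) and Arpp21 1440429_PM_at (0.48, adjusted p = 0.0232) were called, and without A/J control replicate 4 so was Gnal 1440880_PM_at (-0.46, adjusted p = 0.0343). No called difference reversed in these alternatives; 172 of 3762 uncalled values changed sign. With the median of all probe sets as bound, 5 member probe sets were near background. With the replicate number as a block, 3 members were called in control mice and 0 elsewhere. Whether the numbers pair the arrays was not settled. At most 2 of 4 same-numbered pairs per comparison had a correlation over 0.1 (-0.06 to 0.17). The best correlated array carried the same number for 6 of 8 arrays for risperidone in DBA/2J. This held for 5 of 8 between strains in control mice, and for 2 of 8 for risperidone in A/J and between strains in risperidone mice. The cause of these changes was not tested. Fitting the strain-marker share as a covariate was not applied to the strain comparisons. Drd2 is limited by its signal near background.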
